A study of Mus musculus with 9 samples.

Results

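The experiment asked how labelled cells of the mouse tibial periosteum respond in the first days after a fracture. It was chosen by its sample labels: 3 pools of sorted cells collected 2 days after fracture were set against 3 pools from unfractured tibiae, 6 of the 9 pools of the series, over all 10073 genes detected on the arrays. Day 2 fracture pools held cells of 8, 8 and 7 animals aged 2 to 5, 4.5 to 5.5 and 4 to 5 months. Unfractured pools held cells of 9, 8 and 9 animals aged 4, 4 to 5 and 4.5 to 5.5 months. Day 6 fracture pools, used for the shared estimate of spread and for what came after day 2, held cells of 4, 8 and 4 animals aged 4, 3 to 5 and 4 to 5.5 months. In every group 2 of the pools came from males and 1 from females.

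All mice, unfractured ones included, were αSMACreERT2/Ai9 animals of strain B6;129S6 and received 2 doses of tamoxifen at 75 µg/g. In these mice a smooth muscle actin promoter drives a tamoxifen-inducible Cre, and cells in which Cre has acted, with their descendants, carry the red fluorescent protein tomato. Fracture followed the second dose, the control periosteum was taken 2 days after the last dose, and tomato-positive cells were sorted after enzymatic digestion. The promoter is active in pericytes and vascular smooth muscle as well as in periosteal progenitors, so the sorted population is not 1 cell type. Each value comes from a pool, so differences between single animals were not measured.

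The periosteum is the membrane that covers bone and holds the progenitors that build most of a fracture callus. After a fracture, inflammation comes first, progenitors divide, and cartilage and bone matrix follow. Mitotic and DNA replication genes mark dividing cells. Cytokines and chemokines recruit leukocytes, while Notch, BMP, FGF and IGF signals govern whether progenitors divide or differentiate.

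Levels below are normalised log2 intensities of the brightest probe of each gene, and levels of different genes cannot be compared. A gene was called detected in a pool at a detection p under 0.05, and it passed a test at a Benjamini-Hochberg adjusted p under 0.05 in limma. The share of probes detected was 50.4% to 55.2% in day 2 pools and 40.4% to 50.7% in unfractured pools. Unfractured pool 1 had the lowest share, 40.4%, and the highest detection floor, 6.66 on the log2 scale. Levels under that floor, as for Bub1b, Plk1, Prg2, Dnmt3l and P4ha3 in that pool, are printed as measured. The size of rises measured from such levels is less certain. Before normalisation the 75th percentile of intensity was 351, 892 and 759 in day 2 pools 1 to 3, against 302, 350 and 434 in unfractured pools 1 to 3. Acta2, the smooth muscle actin gene whose promoter drives the Cre, was detected in every pool at 14.11, 15.75 and 15.93 in day 2 pools and 16.07, 16.09 and 15.57 in unfractured pools. Day 2 pool 1 was the lowest of the 6, and the groups overlapped.

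Macrophage and pan-leukocyte markers separated pools within both groups. The mean level of 29 markers was 11.84, 7.60 and 8.14 in day 2 pools, against 7.52, 6.71 and 10.30 in unfractured pools. C1qb, a complement subunit made by macrophages, stood at 13.96, 8.12 and 9.25 in day 2 pools and at 4.78, 5.54 and 12.67 in unfractured pools, where it was detected in 1 of 3. Fewer cells of a type cannot be told apart from less RNA per cell in such pools. Day 2 pool 1, unfractured pool 3 and day 6 pool 1, which had a marker mean of 10.20, were therefore set apart as macrophage-high pools, a split made from the data and not a group of the study. The mean of 16 neutrophil markers was 13.87, 9.63 and 9.75 in day 2 pools and 11.83, 9.70 and 11.998 in unfractured pools. Correlations between the pools of a group over all genes were 0.886 to 0.985 at day 2 and 0.854 to 0.939 in unfractured periosteum, lowest where a macrophage-high pool was one of the pair.

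**Figure D1:**
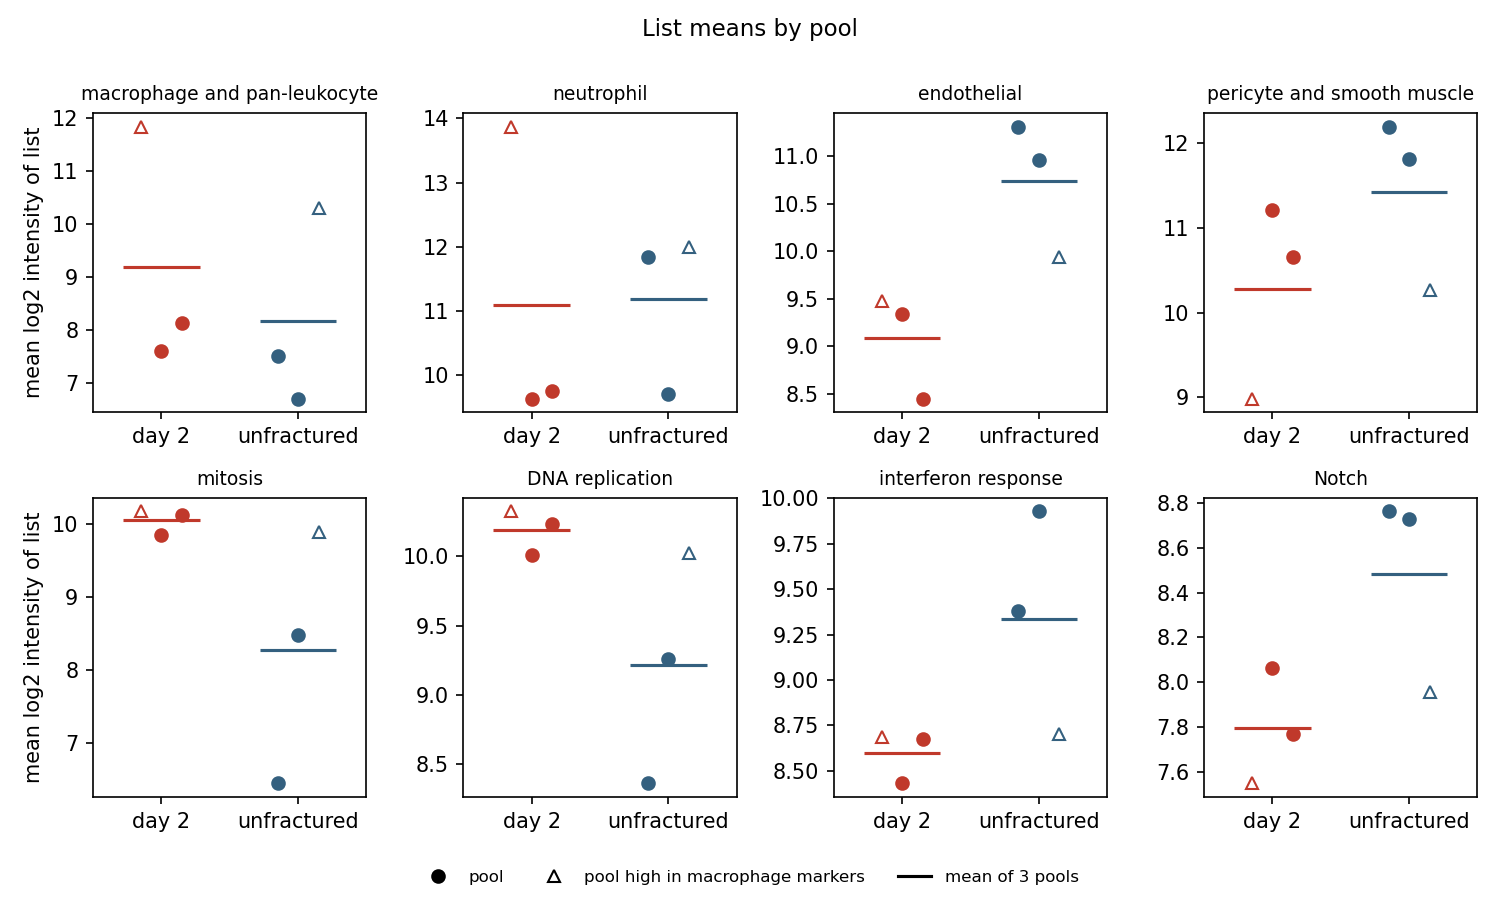
Mean normalised log2 intensity of the tested members of 8 gene lists in each day 2 pool (left, red) and each unfractured pool (right, blue), with open triangles for the macrophage-high pools and lines for the mean of 3 pools. Endothelial means were lower in every day 2 pool than in every unfractured pool; mitosis and DNA replication means were higher at day 2 than in unfractured pools 1 and 2 but overlapped with unfractured pool 3, and the macrophage means overlapped.

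No gene passed the test of day 2 against unfractured over all pools in limma, where 1625 genes had an unadjusted p under 0.05, 918 of them higher at day 2 (9.11% of genes tested) and 707 lower (7.02%), and the smallest adjusted p was 0.139. The count of 0 depends on unfractured pool 3: without it alone 490 genes were called higher and 434 lower, and with array quality weights 2915 and 2218. For 1094 genes (10.9%) all 3 day 2 pools lay above all 3 unfractured pools, and for 775 (7.69%) all 3 lay below. Without the 3 macrophage-high pools, a limma fit over 6 pools with 3 residual degrees of freedom called 1089 genes higher (10.8%) and 1006 lower (9.99%). With median scaling in place of quantile normalisation the same pools gave 5960 higher and 184 lower, and the median of all genes then stood at 1.23 in place of 0.09 on the log2 scale. Macrophage markers still differed among the pools kept: 8 of 29 were called higher at day 2, and their part in the other calls was not tested.

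The calls without the macrophage-high pools rest on few pools, among them unfractured pool 1 with its high detection floor. With the day 6 pools left out as well, the 4 day 2 and unfractured pools gave 0 calls by limma with 3194 genes at an unadjusted p under 0.05. Leaving out day 2 pool 2 besides the macrophage-high pools gave 0 higher and 2 lower, and leaving out day 2 pool 3 or either day 6 pool gave 0 and 0. Leaving out unfractured pool 2 gave 2738 higher and 2144 lower. In the macrophage-high pair, day 2 pool 1 against unfractured pool 3, which those calls did not use, 551 of the 1089 higher genes (50.6%) were also higher, against 47.6% of all genes. Of the 1006 lower genes 658 (65.4%) were also lower in that pair, against 52.4% of all genes.

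**Figure D2:**
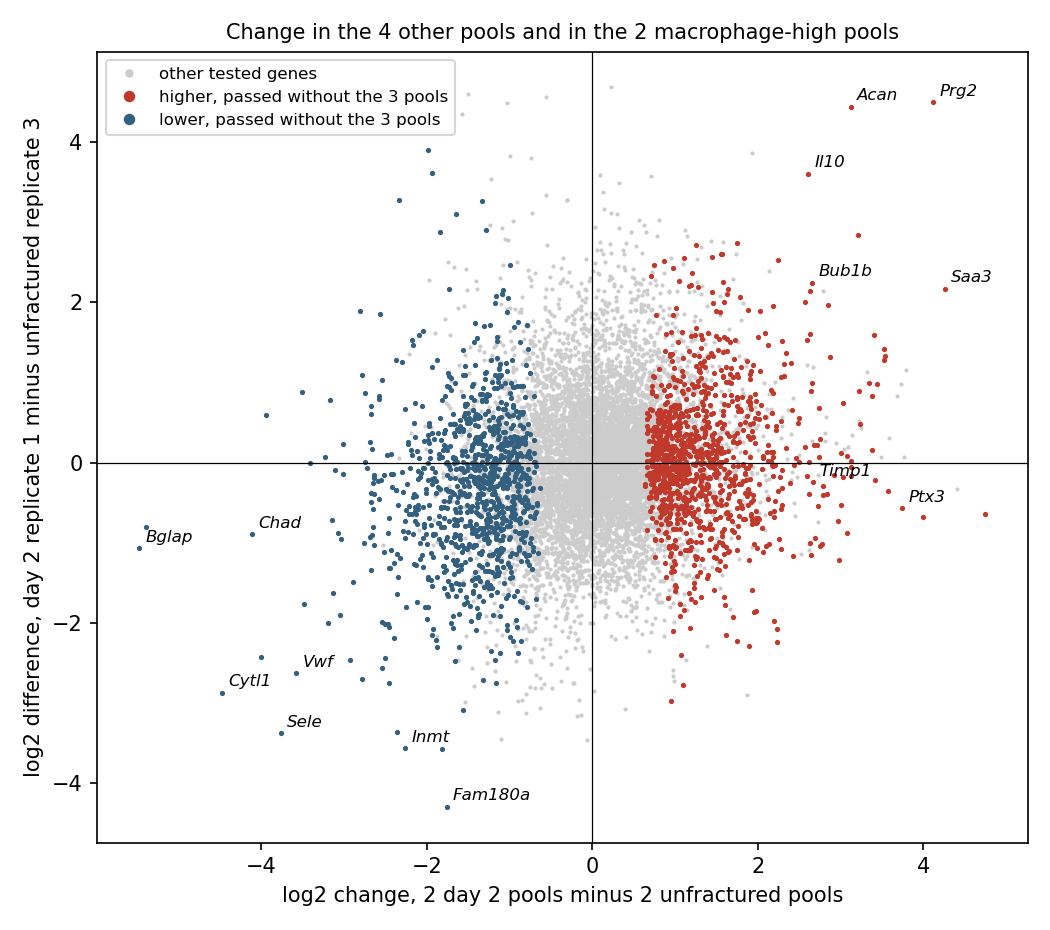
Each point is a gene, with the log2 change of day 2 pools 2 and 3 against unfractured pools 1 and 2 on the horizontal axis and the log2 difference of day 2 pool 1 minus unfractured pool 3 on the vertical axis; red and blue mark the 1089 higher and 1006 lower genes called without the macrophage-high pools. The red points spread about evenly above and below 0 on the vertical axis, with Saa3, Prg2, Acan and Il10 high on both axes, while more blue points lie below 0 than above it.

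Over the 37 gene lists drawn up for the study, the mitosis list had the highest median change and the endothelial list the lowest over all 6 pools. Median log2 changes are given below beside the median of all genes, 0.06 over all pools, 0.09 without the macrophage-high pools and -0.04 in the macrophage-high pair. For each gene the change over all pools comes from the fit of all 9 arrays, whose adjusted p was 0.139 or more. The word "passed" refers to the fit without the macrophage-high pools. Counts of list members called in that fit stand against 10.8% higher and 9.99% lower calls among all genes. Counts of members above or below every unfractured pool stand against 10.9% and 7.69% of all genes. A count near those shares does not set a list apart.

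Genes of cell division were higher at day 2. The 27 tested mitosis genes had a median log2 change of 1.77 over all pools and 2.66 without the macrophage-high pools, but 0.24 in the macrophage-high pair. Without those pools 13 were called higher and 0 lower, and 7 lay above every unfractured pool. In unfractured pool 1 the list mean of 6.45 lay under the detection floor of 6.66. The size of the list's rise is therefore less certain. Bub1b, a kinase of the spindle checkpoint, stood at 9.20, 8.29 and 8.73 in day 2 pools and at 5.01, 6.70 and 6.95 in unfractured pools. No pools overlapped for Bub1b, and the change of 2.52 ± 0.54 (SE) had an adjusted p of 0.17 over all pools and passed without the macrophage-high pools.

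Cdca3, which promotes entry into mitosis, was at 11.51, 11.35 and 11.70 in day 2 pools and at 7.71, 9.61 and 10.18 in unfractured pools. Its change was 2.35 ± 0.54 (SE) and it also passed. Plk1, a kinase that drives mitotic entry and spindle assembly, stood at 10.87, 10.24 and 10.78 at day 2 and at 5.17, 8.40 and 9.89 in unfractured pools. Its pools did not overlap, but it did not pass, with unfractured pool 1 far below the other unfractured pools. Dlgap5, a spindle protein, changed by 2.10 ± 0.60 (SE), the mitotic kinesin gene Kif15 by 2.56 ± 0.73 and the DNA helicase gene Pif1 by 2.55 ± 0.43, and all 3 passed. Unfractured pool 3, the macrophage-high one, had a mitosis mean of 9.89 against 6.45 and 8.48 in the other unfractured pools, while day 2 pools lay between 9.85 and 10.17.

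The promoters of Bub1b, Cdca3 and Plk1 are shown because these genes moved together and because promoters of mitotic genes are known for the cell cycle genes homology region (CHR) and the CCAAT box. Each line gives 250 bases before to 50 bases after the annotated start, 5′ to 3′ on the gene's strand, from RefSeq on build GRCm38.p6, with matches to TTTGAA or CCAAT on either strand in capitals.
Bub1b promoter (chr2:118597961-118598260, plus strand): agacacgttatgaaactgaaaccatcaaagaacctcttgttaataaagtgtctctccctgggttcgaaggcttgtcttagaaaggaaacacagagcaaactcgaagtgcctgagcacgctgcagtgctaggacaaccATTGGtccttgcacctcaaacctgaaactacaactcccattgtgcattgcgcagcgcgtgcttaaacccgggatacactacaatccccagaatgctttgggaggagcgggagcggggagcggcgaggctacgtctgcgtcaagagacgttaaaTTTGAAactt
Cdca3 promoter (chr6:124829926-124830225, plus strand): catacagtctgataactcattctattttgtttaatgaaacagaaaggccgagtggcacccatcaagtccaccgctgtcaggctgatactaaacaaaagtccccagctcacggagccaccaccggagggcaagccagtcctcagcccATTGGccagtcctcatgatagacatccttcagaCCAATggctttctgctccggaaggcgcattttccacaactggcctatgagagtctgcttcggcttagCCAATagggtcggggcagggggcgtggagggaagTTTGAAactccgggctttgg
Plk1 promoter (chr7:122159185-122159484, plus strand): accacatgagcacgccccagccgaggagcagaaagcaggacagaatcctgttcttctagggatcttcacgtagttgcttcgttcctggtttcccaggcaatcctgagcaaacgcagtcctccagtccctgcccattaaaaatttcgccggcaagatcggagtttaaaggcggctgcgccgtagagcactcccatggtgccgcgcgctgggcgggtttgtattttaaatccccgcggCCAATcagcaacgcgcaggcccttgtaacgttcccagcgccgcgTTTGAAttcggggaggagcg

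The CHR letters lie 40, 30 and 30 bases after the start in Bub1b, Cdca3 and Plk1. Of the 34 listed mitosis genes with a promoter in the table, taking the first start listed for a gene, 26 (76.5%) held TTTGAA on either strand, against 18.1% of 27025 genes. CCAAT was also in 26 of the 34 (76.5%), against 37.9% of all. These matches describe letters in a window, overlaps between the motifs were allowed, and no bound factor is shown.

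DNA replication genes followed the same direction. The 35 tested members had a median log2 change of 0.99 over all pools, 1.34 without the macrophage-high pools and 0.41 in the macrophage-high pair. Without those pools 15 were called higher and 0 lower, and for 16 every day 2 pool lay above every unfractured pool. Rpa1, a subunit of the protein that coats single-stranded DNA, was at 12.84, 12.91 and 12.86 in day 2 pools and at 11.95, 12.14 and 12.31 in unfractured pools. The day 2 pools lay close together, the change was 0.74 ± 0.20 (SE), and Rpa1 passed. The E2F site letters TTTGGCGC, on either strand, were in 6 of 36 listed promoters (16.7%), against 0.537% of all. The other form searched, TTTCCCGC, was also in 6 of 36 (16.7%), against 1.11% of all.

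Cdc45, part of the replicative helicase, was at 9.72, 9.16 and 9.69 in day 2 pools and at 7.69, 8.29 and 8.80 in unfractured pools, and it passed. Prim2, a primase subunit, changed by 0.85 ± 0.23 (SE), and Rfc5, a subunit of the clamp loader, by 1.03 ± 0.35; both passed with no overlap of pools. Among 19 G1 regulators, 3 were called higher and 5 lower, against 10.8% and 9.99% of all genes. E2f1 and E2f3, transcription factors that switch on replication genes, were called higher, with changes of 1.00 ± 0.31 and 0.96 ± 0.30 (SE). In the macrophage-high pair they differed by only 0.23 and 0.005. Myc, a growth-promoting transcription factor, was at 7.06, 7.24 and 6.78 in day 2 pools against 7.93, 8.51 and 7.45 in unfractured pools and was called lower. Cdkn1c, an inhibitor of cyclin-dependent kinases, was called lower too, with a change of -0.99 ± 0.61 over all pools and -1.37 without the macrophage-high pools. With median scaling these changes turned to 0.084 and 0.19.

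Ribosome biogenesis genes, which make and assemble ribosomal RNA and its proteins, had a median log2 change of 0.59 over all pools and 0.74 without the macrophage-high pools. Of 35 tested, 7 were called higher and 0 lower, 12 lay above every unfractured pool and 1 below. Polr1a, the large subunit of RNA polymerase I, was at 10.76, 10.93 and 11.15 in day 2 pools and at 10.12, 9.78 and 10.18 in unfractured pools. Polr1e, another subunit, was at 8.54, 8.89 and 9.33 at day 2 and 7.84, 7.81 and 7.59 in unfractured pools. Both passed with no overlap, as did Ebna1bp2, a nucleolar assembly factor, at 0.87 ± 0.22 (SE). Tbl3, a component of the small-subunit processome, had a difference of 1.88 ± 0.43 over all pools but did not pass.

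**Figure D3:**
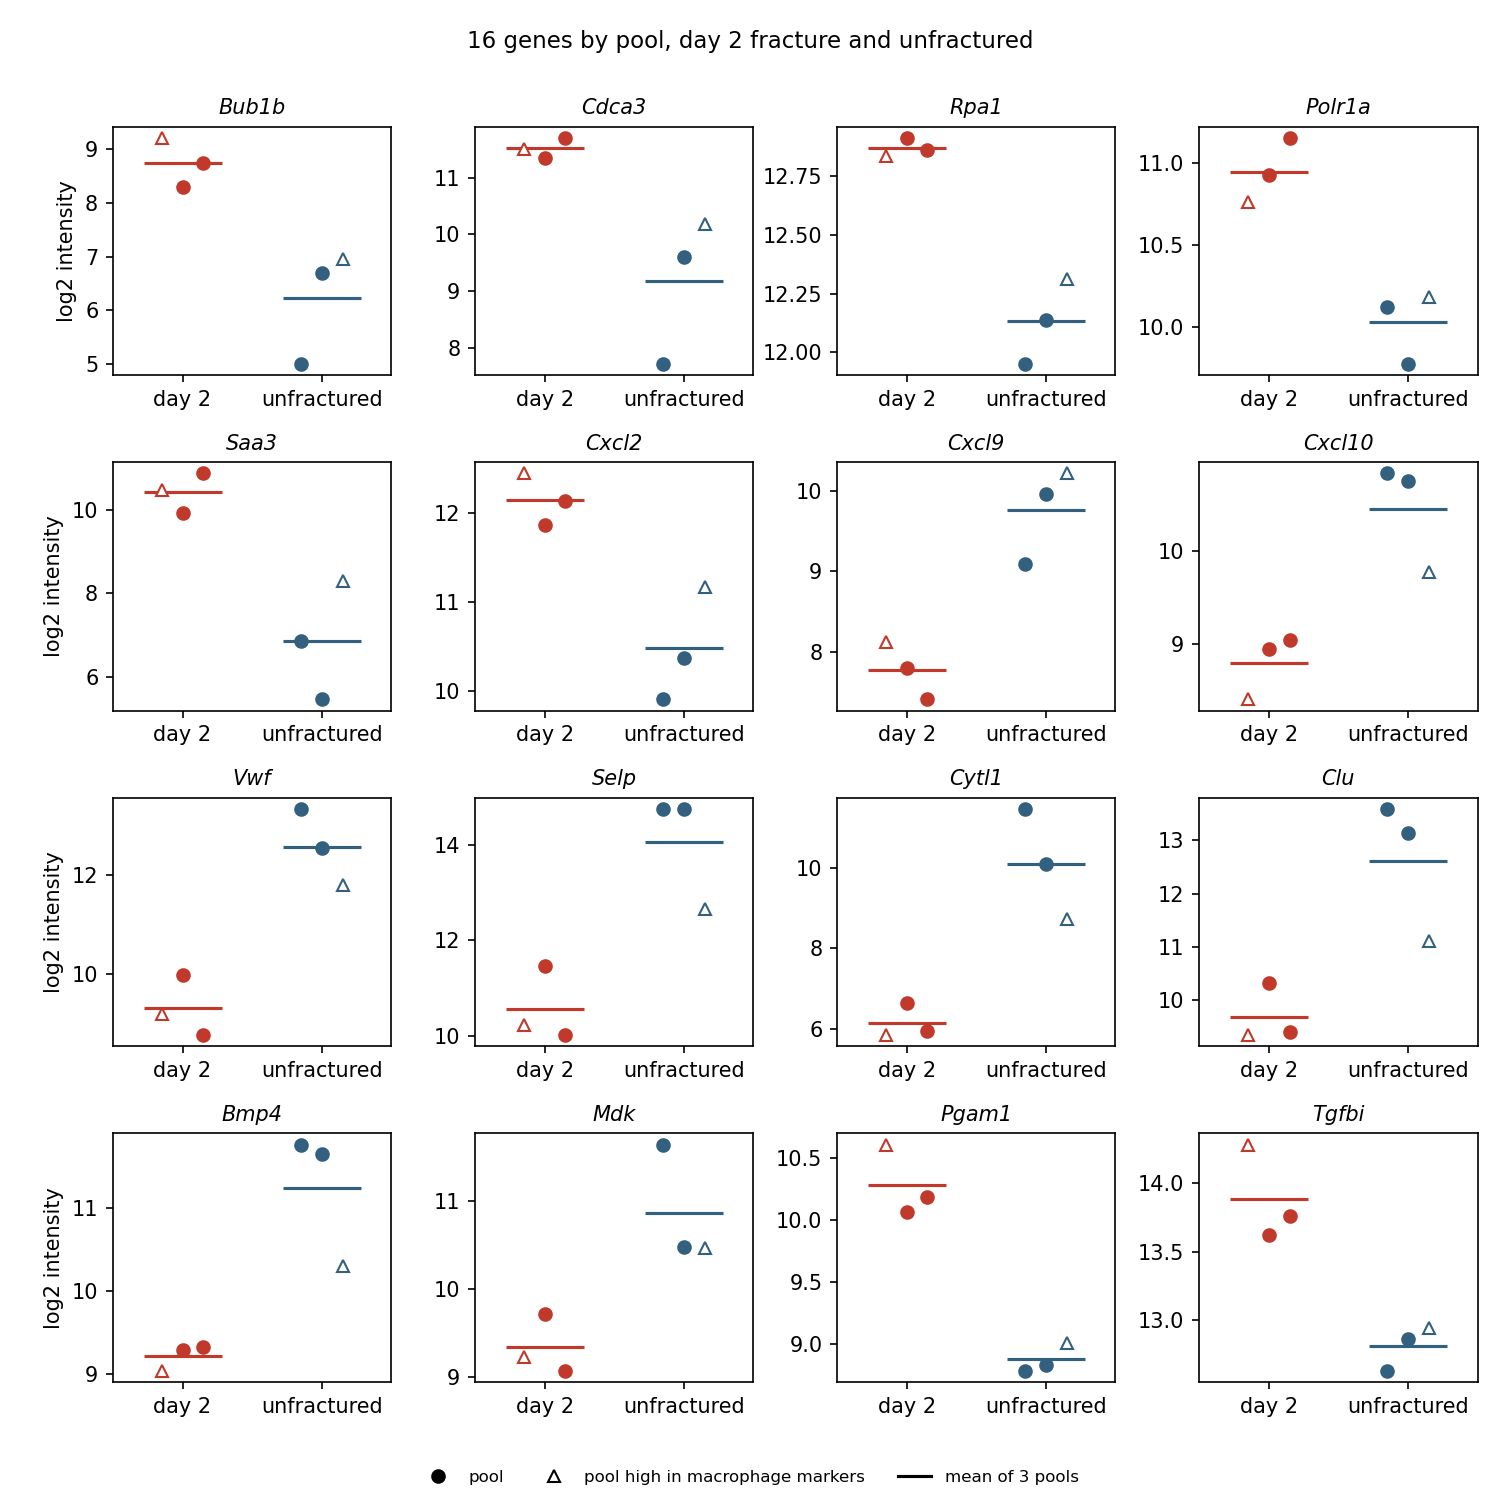
Normalised log2 intensity of 16 genes in each day 2 pool (left, red) and each unfractured pool (right, blue), with open triangles for the macrophage-high pools and lines for the mean of 3 pools. For all 16 genes the 3 day 2 pools and the 3 unfractured pools do not overlap; Bub1b, Cdca3, Rpa1, Polr1a, Saa3, Cxcl2, Pgam1 and Tgfbi are higher at day 2 and the other 8 are lower.

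Cytokine and chemokine genes were mixed, with the higher ones in the majority. Of 30 tested, 10 were called higher and 3 lower, and the median log2 change was 0.83 over all pools, 1.32 without the macrophage-high pools and -0.14 in the macrophage-high pair. Cxcl2, a neutrophil attractant, was at 12.45, 11.87 and 12.14 in day 2 pools and at 9.91, 10.37 and 11.18 in unfractured pools, and it passed with no overlap. Il1b, the inflammatory cytokine interleukin 1 beta, was at 11.91, 10.41 and 11.45 at day 2 and at 9.94, 8.29 and 9.92 in unfractured pools. The Il1b pools did not overlap but the gene did not pass. Macrophage markers, given above by pool, were high in day 2 pool 1, which also held the highest Cxcl2 and Il1b levels, and their part in these levels was not tested.

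Ccl8, a monocyte attractant, had a difference of 2.59 ± 0.85 (SE) and Ccl2, another, of 1.28 ± 0.59 over all pools, and neither passed. Il11, a cytokine of the interleukin 6 family, was at 7.41, 10.10 and 10.04 in day 2 pools and at 4.76, 8.02 and 6.58 in unfractured pools. Il6 itself went the other way in the averages, at 8.69, 13.29 and 11.76 in day 2 pools and 13.87, 14.06 and 11.49 in unfractured pools. Neither passed, and both overlapped between groups. Ptgs2, the inducible enzyme of prostaglandin synthesis, was at 6.57, 8.89 and 8.24 in day 2 pools and at 7.04, 7.15 and 6.99 in unfractured pools, and it did not pass.

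Ptgs2, Saa3 and Ptx3 belong to a list of inflammatory effectors and feedback genes that showed no common direction. Of its 25 tested members 3 were called higher and 2 lower. The list's median log2 change was 0.03 over all pools and -0.13 without the macrophage-high pools. Saa3, an acute phase protein, was at 10.47, 9.93 and 10.88 in day 2 pools and at 6.84, 5.45 and 8.30 in unfractured pools. All day 2 pools were above all unfractured pools, the change was 3.56 ± 0.70 (SE, 11.8-fold), and Saa3 passed. Il10, the anti-inflammatory interleukin 10, was at 8.79, 7.84 and 8.16 in day 2 pools and was not detected in any unfractured pool, so that it was at least 4.35-fold higher at day 2. Prg2, a granule protein of eosinophils, was at 13.24, 9.73 and 9.67 at day 2 and at 5.20, 5.97 and 8.73 in unfractured pools; both Il10 and Prg2 passed. Prg2 was highest in day 2 pool 1, the pool with the highest macrophage mean. Ptx3, a secreted pattern recognition protein, was at 11.50, 13.21 and 13.42 in day 2 pools and at 8.34, 10.82 and 12.07 in unfractured pools, and it passed although the macrophage-high pair went the other way by -0.57.

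Interferon response genes were lower in most of the pools compared. The 24 tested members had a median log2 change of -0.59 over all pools and -1.06 without the macrophage-high pools, against 0.18 in the macrophage-high pair and 0.22 over all pools under median scaling, where the median of all genes was 0.83. Of them 11 were called lower and 1 higher, and 6 lay below every unfractured pool. Ifi47, an interferon-induced GTPase, was at 6.85, 7.51 and 7.68 in day 2 pools and at 9.95, 10.31 and 8.84 in unfractured pools. Its change was -2.35 ± 0.41 (SE), with an adjusted p of 0.139 over all pools, and it passed.

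Gbp2, a guanylate-binding GTPase, was at 9.88, 11.16 and 10.92 in day 2 pools and at 12.45, 13.51 and 12.03 in unfractured pools. Igtp, an interferon gamma induced GTPase, was at 7.78, 8.35 and 8.78 at day 2 and at 9.92, 10.96 and 9.20 in unfractured pools. Both passed with no overlap of pools. Tgtp1, a further GTPase of this family that was not on the list, changed by -2.77 ± 0.46 (SE) and also passed. Irf9, a subunit of the factor that binds ISRE sites, was at 9.44, 9.27 and 9.12 in day 2 pools and at 10.71, 10.83 and 9.51 in unfractured pools, and it passed, but its change of -1.07 ± 0.35 (SE) turned to 0.020 under median scaling. Mx2, an antiviral GTPase, was at 6.08, 7.18 and 7.20 in day 2 pools and at 9.95, 9.96 and 7.08 in unfractured pools; it passed, but unfractured pool 3 lay among the day 2 pools.

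The chemokines Cxcl9 and Cxcl10, which interferon induces and which attract T cells, were lower as well. Cxcl9 was at 8.13, 7.80 and 7.41 in day 2 pools and at 9.09, 9.96 and 10.21 in unfractured pools. Cxcl10 was at 8.41, 8.95 and 9.05 in day 2 pools and at 10.83, 10.75 and 9.77 in unfractured pools. No pools overlapped for either gene, the changes were -1.98 ± 0.34 and -1.65 ± 0.33 (SE), and both passed.

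The promoters of Gbp2, Igtp and Cxcl10 are shown because interferon-stimulated response elements (ISRE) in such promoters are the known binding sites of interferon-activated factors. Matches on either strand to its core, GAAA followed by any 2 bases and GAAA again, are in capitals, and the source, span and build are as for the mitotic genes.
Gbp2 promoter (chr3:142620413-142620712, plus strand): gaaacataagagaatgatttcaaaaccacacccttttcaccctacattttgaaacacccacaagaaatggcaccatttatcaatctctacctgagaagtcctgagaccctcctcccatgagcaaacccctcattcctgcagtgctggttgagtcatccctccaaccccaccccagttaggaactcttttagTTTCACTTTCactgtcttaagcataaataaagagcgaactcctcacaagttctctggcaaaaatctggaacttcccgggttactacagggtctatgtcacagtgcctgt
Igtp promoter (chr11:58199306-58199605, plus strand): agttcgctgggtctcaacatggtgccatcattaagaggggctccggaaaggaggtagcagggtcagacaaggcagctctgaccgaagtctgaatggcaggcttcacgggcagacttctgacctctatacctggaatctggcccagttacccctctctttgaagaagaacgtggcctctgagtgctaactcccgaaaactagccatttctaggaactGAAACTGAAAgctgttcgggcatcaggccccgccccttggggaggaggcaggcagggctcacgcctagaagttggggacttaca
Cxcl10 promoter (chr5:92348840-92349139, minus strand): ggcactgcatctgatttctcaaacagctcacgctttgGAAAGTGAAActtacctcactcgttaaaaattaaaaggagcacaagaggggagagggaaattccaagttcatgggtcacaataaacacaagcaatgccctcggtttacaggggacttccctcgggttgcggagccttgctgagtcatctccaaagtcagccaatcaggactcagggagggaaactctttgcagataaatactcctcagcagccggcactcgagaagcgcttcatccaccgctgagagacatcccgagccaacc

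The core begins 59, 34 and 213 bases before the start in Gbp2, Igtp and Cxcl10. It was found in 13 of 26 listed interferon genes with a promoter in the table (50%), against 3.49% of all 27025 genes.

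Endothelial markers were lower at day 2. The 19 tested markers had a median log2 change of -1.63 over all pools, -2.52 without the macrophage-high pools, -0.23 in the macrophage-high pair and -0.63 over all pools under median scaling. Of these 17 were called lower and 0 higher, and 9 lay below every unfractured pool. Vwf, the von Willebrand factor of endothelial granules, was at 9.18, 9.98 and 8.76 in day 2 pools and at 13.35, 12.55 and 11.81 in unfractured pools, 9.58-fold lower. Plvap, a protein of endothelial fenestrae, was at 11.30, 10.67 and 10.20 at day 2 and at 13.42, 13.71 and 12.93 in unfractured pools. The groups did not overlap for either gene and both passed.

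The selectins Selp and Sele, adhesion molecules by which endothelium captures leukocytes, were lower by more. Neither is on the endothelial list, and other such adhesion molecules are not given here. Selp (P-selectin) was at 10.23, 11.45 and 10.02 in day 2 pools and at 14.74, 14.74 and 12.66 in unfractured pools, 11.2-fold lower. Sele (E-selectin) was at 6.22, 8.35 and 7.03 at day 2 and at 11.05, 11.85 and 9.60 in unfractured pools, 12.4-fold lower. Both passed with no overlap of pools, as did Ackr1, a chemokine-binding receptor of venules, at -2.55 ± 0.46 (SE). Mmrn2, Ptprb, Emcn and Sox18, all known from endothelium, changed by -2.35 ± 0.73, -2.34 ± 0.73, -2.06 ± 0.70 and -1.63 ± 0.56 and passed too.

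Pericyte and smooth muscle markers were lower by less, and none was free of overlap. Their 19 tested members had a median log2 change of -1.18 over all pools, -1.10 without the macrophage-high pools and -1.19 in the macrophage-high pair. Median scaling gave -0.13 over all pools and 0.39 without the macrophage-high pools, against 0.83 and 1.23 for all genes. Of the 19, 7 were called lower and 0 higher. Rgs5, a signalling regulator of pericytes, was at 10.73, 13.08 and 11.91 in day 2 pools and at 14.51, 14.76 and 11.46 in unfractured pools, and it passed. Abcc9, a potassium channel subunit of pericytes, changed by -1.58 ± 0.54 and Notch3, a receptor of mural cells, by -1.18 ± 0.88 (SE), and both passed, though Notch3 turned to 0.27 under median scaling without the macrophage-high pools. Acta2 and Mylk, the kinase of smooth muscle myosin, did not pass, with differences of -0.64 ± 0.52 and -1.49 ± 0.70. Pdgfrb, the PDGF receptor of mural cells, did not pass either, at -0.62 ± 0.31, which turned to 0.49 under median scaling.

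Notch pathway genes were lower as a list, through receptors, ligands and targets. The 26 tested members had a median log2 change of -0.99 over all pools, -1.08 without the macrophage-high pools and -0.25 in the macrophage-high pair. Median scaling gave -0.12 over all pools and 0.30 without the macrophage-high pools, against 0.83 and 1.23 for all genes. Of the 26, 12 were called lower and 0 higher, with 7 below and 2 above every unfractured pool. Among receptors, Notch1 was at 8.89, 9.30 and 8.60 in day 2 pools and at 11.05, 10.43 and 9.44 in unfractured pools, and it passed with no overlap. Notch2, at 6.14, 5.37 and 5.61 in day 2 pools and 8.10, 7.19 and 5.65 in unfractured pools, passed but overlapped.

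Of the ligands, Dll1 was at 6.14, 6.18 and 6.18 in day 2 pools and at 7.75, 8.15 and 6.47 in unfractured pools and passed, whereas Jag1, at 6.19, 8.54 and 7.47 against 9.45, 8.57 and 7.79, did not. Among target genes Hes1 and Hey1 were lower and Heyl was not called. Hes1, a transcriptional repressor switched on by Notch, was at 8.59, 10.35 and 10.57 in day 2 pools and at 11.83, 11.42 and 11.34 in unfractured pools. Hey1, another, was at 9.13, 10.10 and 9.43 at day 2 and at 11.33, 11.25 and 10.81 in unfractured pools. Both passed with no overlap, but under median scaling without the macrophage-high pools their changes turned to 0.46 and 0.11. Heyl, a relative of Hey1, was at 6.32, 7.88 and 7.22 in day 2 pools and at 7.52, 7.52 and 9.18 in unfractured pools, with overlap. Mfng, an enzyme that modifies Notch receptors, changed by -1.95 ± 0.73 (SE) and passed. Rbpj, the DNA-binding partner of Notch, was detected in all day 2 pools and in no unfractured pool, at least 1.25-fold higher, and did not pass.

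Endothelial cells express several genes of this list, Notch1 and Mfng among them, and the endothelial list mean was 9.48, 9.34 and 8.45 in day 2 pools against 11.31, 10.96 and 9.94 in unfractured pools. Its part in the lower Notch genes was not tested.

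**Figure D4:**
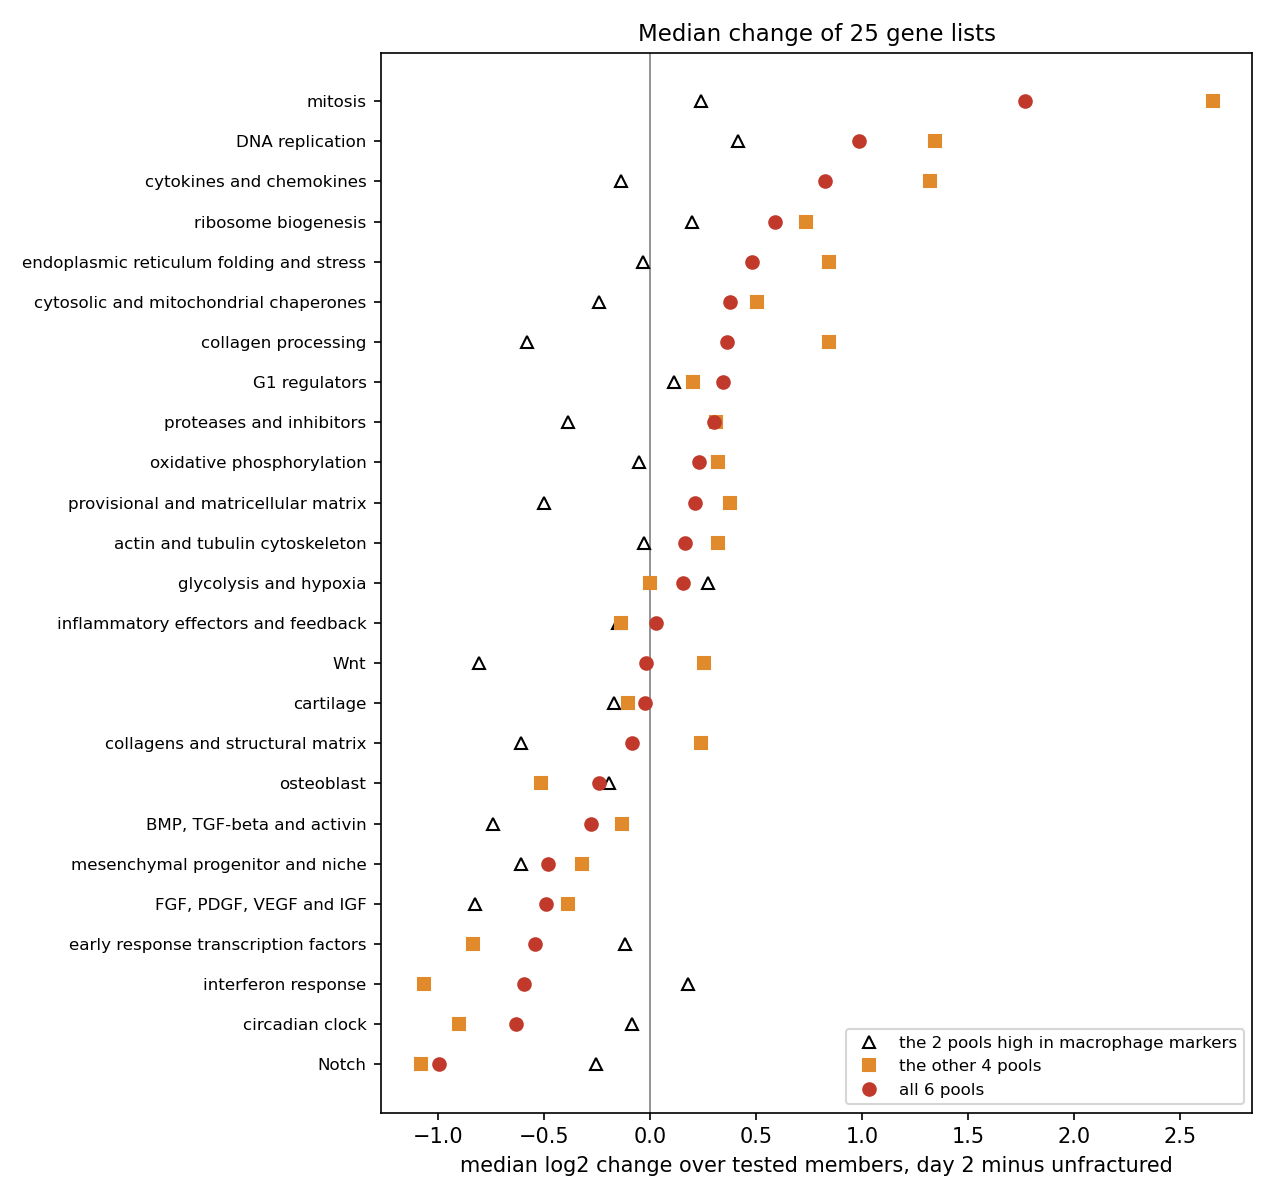
Median log2 change, day 2 minus unfractured, over the tested members of 25 pathway lists, for all 6 pools (red circles), for the 4 pools left without the macrophage-high ones (orange squares) and for day 2 pool 1 minus unfractured pool 3 (open triangles). Mitosis and DNA replication are highest over all 6 pools, Notch is lowest, and the open triangles lie nearer 0 than the squares for mitosis, Notch and the circadian clock.

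Growth factor genes of the FGF, PDGF, VEGF and IGF families were mostly lower. Of 34 tested, 9 were called lower and 2 higher, and 11 lay below every unfractured pool and 1 above. The list's median log2 change of -0.49 over all pools turned to 0.49 under median scaling, where the median of all genes was 0.83. Igf2, a fetal growth factor, was at 11.83, 12.64 and 11.97 in day 2 pools and at 14.43, 13.88 and 12.78 in unfractured pools. Mdk, the heparin-binding growth factor midkine, was at 9.23, 9.71 and 9.07 in day 2 pools and at 11.63, 10.47 and 10.46 in unfractured pools. Both passed with no overlap of pools. Igfbp3, which binds IGFs, changed by -1.63 ± 0.45 (SE), and Vegfc, which acts on lymphatic and blood vessels, by -1.26 ± 0.33, and both passed, though Vegfc turned to 0.59 under median scaling without the macrophage-high pools.

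Angpt1, a ligand of the endothelial receptor Tek, was at 6.39, 7.82 and 7.28 in day 2 pools and at 9.02, 8.27 and 8.55 in unfractured pools, and it did not pass. Vegfd, a relative of Vegfc, was an exception in direction, at 9.20, 10.69 and 11.26 at day 2 and at 7.02, 8.45 and 8.72 in unfractured pools, and it passed. Fgfr3, an FGF receptor of cartilage, was not detected in any day 2 pool and in 2 of 3 unfractured pools, at least 1.57-fold lower at day 2, and it passed.

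In the BMP, TGF-beta and activin list 4 of 35 were called lower and 2 higher, against 9.99% and 10.8% of all genes. Of the 35, 6 lay below and 2 above every unfractured pool, against 7.69% and 10.9% of all genes. The list's median log2 change was -0.28 over all pools and turned to 0.61 under median scaling, where the median of all genes was 0.83. Bmp4, a bone morphogenetic protein, was at 9.04, 9.29 and 9.32 in day 2 pools and at 11.76, 11.64 and 10.30 in unfractured pools, 4.04-fold lower. Bmp6 was at 4.96, 5.83 and 5.78 at day 2 and at 8.44, 8.12 and 5.84 in unfractured pools, where unfractured pool 3 was level with the highest day 2 pool. Both passed. Id1, a target of BMP signalling, changed by -1.04 ± 0.48 with no overlap and passed, but turned to 0.052 under median scaling. Id4, of the same family, had a difference of -1.90 ± 0.60 (SE) with no overlap and did not pass.

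Genes of collagen processing were called higher more often than lower, while collagens and other structural matrix genes were called lower more often, 6 of 28 against 1 higher, with a median log2 change of -0.08 over all pools and 0.24 without the macrophage-high pools. Of 20 processing genes, 8 were called higher and 2 lower, with a median log2 change of 0.37 over all pools, 0.84 without the macrophage-high pools and -0.58 in the macrophage-high pair. P4ha3, a collagen prolyl hydroxylase subunit, was at 8.01, 6.95 and 7.54 in day 2 pools and at 4.61, 4.62 and 6.40 in unfractured pools. Loxl2, a collagen cross-linking oxidase, was at 8.58, 9.33 and 9.31 at day 2 and at 7.67, 8.11 and 8.56 in unfractured pools. Both passed and did not overlap, although Loxl2 differed by only 0.02 in the macrophage-high pair.

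Lox, the founding member of that oxidase family, was at 13.82, 14.81 and 14.81 in day 2 pools and at 12.76, 13.16 and 14.03 in unfractured pools; it passed, with overlap. Col1a1, the main chain of bone collagen, was at 15.56, 14.96 and 14.87 in day 2 pools and at 14.79, 14.44 and 15.41 in unfractured pools, and Col3a1 had a difference of 0.06 ± 0.52 (SE). Neither passed. Tgfbi, an adhesive matrix protein, was at 14.28, 13.62 and 13.76 at day 2 and at 12.63, 12.86 and 12.94 in unfractured pools, and it passed with no overlap. Tnn, a tenascin of the periosteum, had a difference of 2.57 ± 0.76 with no overlap and did not pass. Tnc, another tenascin, was at 12.54, 13.11 and 12.43 in day 2 pools and at 11.49, 12.32 and 13.63 in unfractured pools, with overlap, and did not pass.

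Of 28 proteases and inhibitors 8 were called higher and 5 lower. Timp1, an inhibitor of metalloproteinases, was at 14.07, 14.996 and 15.02 in day 2 pools and at 11.85, 12.83 and 14.31 in unfractured pools. Timp3, a matrix-bound inhibitor of the same family, went the other way, at 11.55, 13.01 and 12.65 in day 2 pools and at 14.81, 14.69 and 12.73 in unfractured pools. Both passed, and in both unfractured pool 3 made the groups overlap. Adamts1, a protease of aggregating proteoglycans, changed by -2.04 ± 0.75 (SE) and passed.

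Cartilage genes had a median log2 change of -0.02 over all pools at day 2, with more called lower than higher. Of 19 tested, 1 was called higher and 6 lower, against 10.8% and 9.99% of all genes. The 6 called lower were also lower in the macrophage-high pair. Over all pools 2 of the 19 lay above and 1 below every unfractured pool. Acan, the aggregating proteoglycan of cartilage, was at 9.59, 9.28 and 7.52 in day 2 pools and was not detected in any unfractured pool, at least 6.29-fold higher at day 2, and it passed. Hapln1, the link protein that ties aggrecan to hyaluronan, was detected in 2 of 3 day 2 pools and in no unfractured pool and did not pass. Col2a1, the main cartilage collagen, was at 10.75, 6.82 and 5.77 in day 2 pools and at 8.19, 9.24 and 11.06 in unfractured pools, and it was called lower. Day 2 pool 1 was close to the highest unfractured pool for Col2a1.

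Cytl1, a small secreted protein of cartilage, had the lowest change of the genes named here apart from Bglap, -3.94 ± 0.64 (SE, 15.4-fold lower). Cytl1 was at 5.85, 6.65 and 5.95 in day 2 pools and at 11.46, 10.10 and 8.72 in unfractured pools, with no overlap, and it passed. Chad, a leucine-rich matrix protein, was at 9.01, 10.30 and 9.04 at day 2 and at 13.82, 13.74 and 9.90 in unfractured pools, and Comp and Matn4, matrix proteins of cartilage and tendon, changed by -1.40 ± 0.62 and -1.87 ± 0.82. All 3 were called lower. Sox9, the transcription factor of the cartilage lineage, was at 7.27, 8.84 and 8.67 in day 2 pools and at 6.07, 8.36 and 7.77 in unfractured pools and did not pass.

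Osteoblast genes varied with the pool. Bglap, the osteocalcin gene, was at 14.66, 8.71 and 5.92 in day 2 pools and at 12.87, 12.70 and 15.73 in unfractured pools, and its near-identical neighbour Bglap2, whose probe may share signal with it, at 15.11, 9.86 and 7.03 against 13.91, 13.76 and 15.91. The macrophage-high pools held the highest level in each group, the groups overlapped, and both genes were called lower. Sp7, an osteoblast transcription factor, had a difference of 0.17 ± 0.74 (SE) and did not pass. Omd, a proteoglycan of bone, was at 8.90, 9.37 and 7.53 in day 2 pools and at 10.05, 9.39 and 10.50 in unfractured pools and did not pass. Of 15 tested osteoblast genes 1 was called higher and 3 lower, against 10.8% and 9.99% of all genes.

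Of 23 progenitor and niche genes 5 were called lower and 1 higher. Nt5e, the mesenchymal surface marker CD73, was at 10.29, 10.17 and 9.43 in day 2 pools and at 11.40, 11.40 and 10.85 in unfractured pools. Kitl, the stem cell factor of marrow niches, was at 8.93, 10.08 and 9.79 at day 2 and at 11.53, 11.31 and 10.14 in unfractured pools. Both were called lower, but under median scaling without the macrophage-high pools Nt5e turned to 0.024 and Kitl to 0.14. Cd34 changed by -0.95 ± 0.66 (SE) and was called lower, a change that turned to 0.14 over all pools and to 0.51 without the macrophage-high pools under median scaling, and Pdgfra, a receptor of mesenchymal progenitors, had a difference of 0.21 ± 0.53 and did not pass.

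Genes of folding and stress in the endoplasmic reticulum were more often called higher, 12 of 24, than lower, 2. Their median log2 change was 0.48 over all pools, 0.84 without the macrophage-high pools and -0.04 in the macrophage-high pair. The 2 called lower were Ddit3 and Dnajb9, at -1.04 ± 0.38 and -0.92 ± 0.42 (SE) over all pools, both with overlap. Atf4, at -0.68 ± 0.39, lay below every unfractured pool in all day 2 pools but did not pass. Creld2, a secretory pathway chaperone, was at 11.47, 11.18 and 11.60 in day 2 pools and at 9.98, 10.28 and 10.79 in unfractured pools. Hyou1, a chaperone, changed by 1.31 ± 0.33 and Sec61a1, the core of the translocation channel, by 0.93 ± 0.28 (SE). All 3 passed with no overlap. The heat shock gene Hspa1a, by contrast, was at 9.70, 11.25 and 11.13 at day 2 and at 13.99, 13.39 and 12.15 in unfractured pools and was called lower.

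Early response transcription factors, which respond within minutes to stimulation and to tissue dissociation, had 6 of 24 called lower and 0 higher. Their median log2 change was -0.54 and turned to 0.18 under median scaling, where the median of all genes was 0.83. Atf3 was at 12.74, 12.66 and 12.26 in day 2 pools and at 15.08, 14.06 and 12.60 in unfractured pools, and Maff changed by -1.76 ± 0.83 (SE). Dusp2, an immediate early phosphatase gene, changed by -0.99 ± 0.57, which turned to 0.0031 under median scaling. All 3 were called lower and all overlapped between groups. Among clock genes 8 of 16 were called lower and 0 higher. Their median was -0.63 and turned to 0.25 under median scaling, again below the 0.83 of all genes. Nr1d1, a repressor in the clock loop, was at 8.33, 8.86 and 9.20 in day 2 pools and at 10.66, 10.71 and 9.37 in unfractured pools, and Dbp, a clock output factor, changed by -1.77 ± 0.66; both were called lower. The hours of collection are not in the labels. Npas2, a clock activator, was detected in all day 2 pools and in no unfractured pool, at least 1.21-fold higher, and did not pass.

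Of 26 glycolysis and hypoxia genes 1 was called higher and 3 lower, against 10.8% and 9.99% of all genes. Of the 26, 6 lay above and 2 below every unfractured pool, against 10.9% and 7.69% of all genes. Pgam1, a glycolytic mutase, was at 10.61, 10.07 and 10.19 in day 2 pools and at 8.79, 8.84 and 9.01 in unfractured pools. Its change was 1.41 ± 0.27 (SE) and it passed. Pkm, pyruvate kinase, had a difference of 0.96 ± 0.31 and Car12, a carbonic anhydrase induced by hypoxia, of 1.63 ± 0.51; neither passed, and neither overlapped between groups.

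Further genes stood out by size among those that passed without the macrophage-high pools and did not overlap over all pools, 383 of them higher and 349 lower. Clu, the secreted chaperone clusterin, was at 9.35, 10.33 and 9.41 in day 2 pools and at 13.58, 13.13 and 11.12 in unfractured pools, 7.53-fold lower. Gsn, the actin-severing protein gelsolin, was at 7.62, 9.30 and 10.21 at day 2 and at 12.30, 11.93 and 10.99 in unfractured pools. Inmt, an indolamine methyltransferase, was at 7.23, 8.07 and 8.74 in day 2 pools and at 10.80, 10.54 and 10.80 in unfractured pools. The unfractured pools lay close together for Inmt, and all 3 genes were lower in every day 2 pool.

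Fam107a, Myrip and Akr1c19 changed by -2.79 ± 0.57, -2.75 ± 0.45 and -2.56 ± 0.43 (SE), and Ctcfl, a paralogue of the insulator protein CTCF, by -2.67 ± 1.18. Among the higher genes, Dnmt3l, a cofactor of DNA methyltransferases, was at 8.19, 8.63 and 9.44 in day 2 pools and at 4.94, 6.26 and 7.21 in unfractured pools. Pcyox1l was detected in all day 2 pools and in no unfractured pool, at least 2.47-fold higher. Actc1, the cardiac form of actin, changed by 2.46 ± 0.80, Ugt1a10 by 2.24 ± 0.65 and Gatd1 by 2.11 ± 0.54. Ugt1a10 belongs to a gene cluster whose members share exons, so its probe may read several of them.

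Few genes were lower at day 6 than at day 2. Against day 2, 11 genes (0.109%) were lower and 132 (1.31%) higher at day 6 in the limma fit of all pools. The lower genes, all named here after their values were seen, were Npy, Car4, Ccnd1, Mcm4, Rpa1, Syne3, Gpatch4, Tgm1, Hsd11b1, Rtn4 and Mrps22. Npy, the peptide neuropeptide Y, was at 5.80, 6.30 and 6.57 in unfractured pools, at 8.07, 7.47 and 7.97 at day 2 and at 5.22, 5.39 and 5.15 at day 6, where it was not detected in any pool. Day 2 pools were the highest of the 9 for Npy, and it was also called higher at day 2 than in unfractured pools without the macrophage-high pools. Ccnd1, the G1 cyclin D1, was at 11.57, 12.29 and 11.72 in unfractured pools, at 12.02, 12.51 and 12.43 at day 2 and at 10.98, 10.75 and 10.56 at day 6.

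Mcm4, a subunit of the replicative helicase, was at 12.17, 12.50 and 12.83 in unfractured pools, at 12.999, 13.01 and 13.19 at day 2 and at 11.68, 11.84 and 11.62 at day 6. Its day 6 pools lay below all others. Car4, a membrane-bound carbonic anhydrase, was at 5.20, 6.63 and 5.42 in unfractured pools, at 7.56, 7.76 and 9.65 at day 2 and was not detected at day 6. The genes of cartilage were the opposite case. Acan was at 14.84, 14.92 and 15.09 at day 6, and Col2a1, called lower at day 2, lay between 15.72 and 16.02 in the 3 day 6 pools.

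Several genes lower at day 2 than in unfractured pools were higher at day 6 than at day 2. Mdk was at 12.57, 13.22 and 13.30 at day 6, Igf2 at 14.06, 14.94 and 14.996, and Nt5e at 11.996, 12.60 and 12.54. Fam180a, a secreted protein of little known function, was at 10.77, 10.05 and 9.82 in unfractured pools, at 5.52, 9.22 and 8.09 at day 2 and at 12.70, 12.97 and 12.999 at day 6. These 4 genes passed the test of day 6 against day 2. Against unfractured pools Mdk passed at day 6, with an adjusted p of 0.022 in limma, whereas Nt5e, Fam180a and Igf2 did not, at 0.0908, 0.108 and 0.274, and the Igf2 pools overlapped. The comparison of day 6 with day 2 shares the day 2 pools with that of day 2 with unfractured, so a low or high day 2 level enters both.

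**Figure D5:**
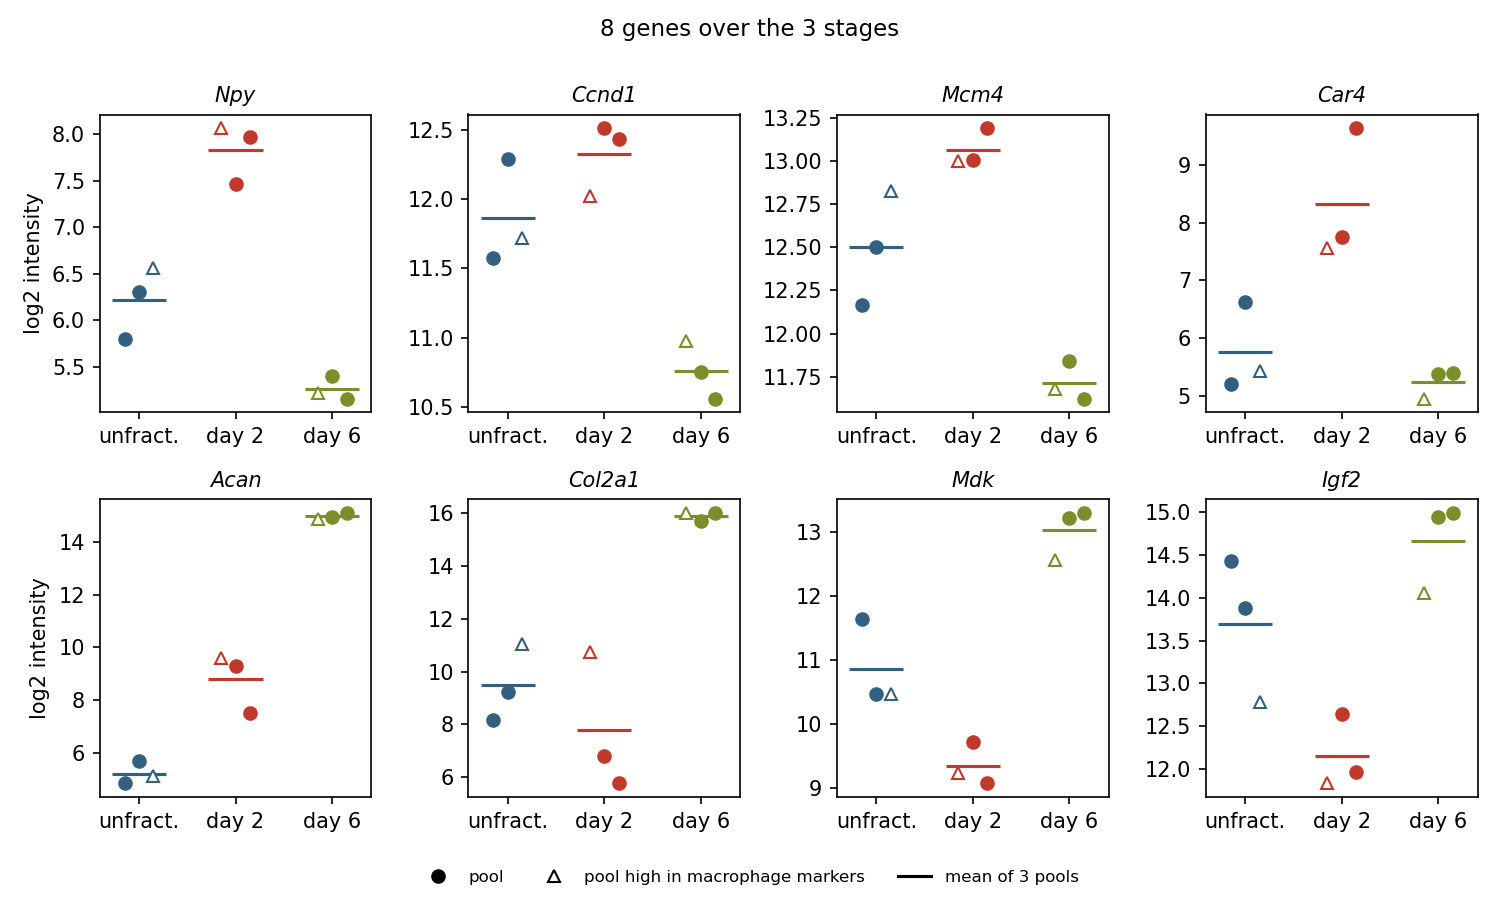
Normalised log2 intensity of 8 genes in the 3 unfractured, 3 day 2 and 3 day 6 pools, from left to right, with open triangles for the macrophage-high pools and lines for the mean of 3 pools. Npy and Car4 are highest at day 2, Ccnd1 and Mcm4 are lowest at day 6, Acan has a higher mean at each later stage, and Col2a1, Mdk and Igf2 have their lowest mean at day 2 and their highest at day 6.

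Markers of other cell types are given by their counts, against 10.8% higher and 9.99% lower calls among all genes. Of 16 neutrophil markers 2 were called lower, of 9 adipocyte markers 3 lower, of 13 skeletal muscle markers 1 lower, and of 4 lymphocyte, 6 osteoclast and 4 Schwann cell markers none. In the mast cell list 1 of 4 was called higher, in the erythroid list 1 of 4 lower and in the tendon list 4 of 5 lower. The macrophage markers Mrc1, a mannose receptor, and Cd163, a haemoglobin scavenger receptor, were at 13.21, 9.64 and 10.43 and at 10.49, 7.51 and 7.39 in day 2 pools, against 5.56, 7.45 and 11.79 and 4.78, 4.98 and 8.48 in unfractured pools. Both passed, and both overlapped between groups through unfractured pool 3.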

How the data were processed

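RNA of sorted pools was amplified and hybridised to Illumina bead arrays of 25697 probes. The authors deposited linear probe intensity, not background-corrected or normalised, with a detection p-value for each probe, exported from GenomeStudio per the submitters' processing notes, version not given in the sources used here. A second deposited intensity table, by its values quantile-normalised, served as an alternative. Intensities were corrected with limma's neqc (offset 16, quantile normalisation, log2; limma 3.58.1, R 4.3.3). A probe entered if 3 or more of 9 arrays detected it (p under 0.05), and each gene took the probe with the highest mean, giving 10073 genes. Of the probes, 23978 had 1 gene symbol and 1719 none in GEO's platform annotation.

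One mean per group was fitted with limma over 9 arrays (6 residual degrees of freedom), two-sided, with Benjamini-Hochberg adjustment. The members and lists were chosen with earlier results of these data known. Genes were named as the 15 largest changes in each direction among called genes without overlap between groups, up to 6 genes per list by p and a fixed panel. Since no gene was called over all pools, the first part of that rule was applied to the fit without the macrophage-high pools, after its values were seen. Not every gene the rule names is printed. Genes singled out elsewhere were chosen after their values were seen. The labels do not say whether pools were independent in collection or amplification. The p-values set a difference against the spread between these pools and hold only if the pools are independent. Precision is limited by having 3 arrays in a group. A group undetected in every pool gave a bound against its detection floor. Changes were simulated for day 2 against unfractured (10073 genes). The 9-pool fit recovered 13.4% of those of log2 size 1, 44.8% of size 2 and 90.9% of size 4, with 9 false calls. The fit without the macrophage-high pools recovered 10.4%, 55.2% and 90.9%, with 3 false calls. Noise was drawn independently for each gene and pool, so differences that many genes of a pool share were left out. Recovery in the real pools, where macrophage markers differ, was not measured by it. Normalisation, offset, filters, probe choice, arrays, sex, replicate block and weights were varied.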

Additional observations from a re-analysis of the deposited data

Results flagged for a closer look

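Some genes named above differed between day 6 and day 2 after fracture in the limma fit of all pools, at an adjusted p under 0.05. All values are log2 changes of day 6 against day 2, and the 3 day 2 pools are also part of the comparison with unfractured periosteum.

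Genes lower at day 6 than at day 2 changed as follows: Car4 by -3.08, Npy by -2.58, Gpatch4 by -1.75, Syne3 by -1.68, Hsd11b1 by -1.64, Tgm1 by -1.62, Ccnd1 by -1.56, Mcm4 by -1.35, Rtn4 by -1.23, Rpa1 by -1.23 and Mrps22 by -1.09. Npy, Car4 and Tgm1 were not detected in any day 6 pool.

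Among genes higher at day 6 than at day 2, those of the cartilage list were Col2a1 by 8.13, Hapln1 by 7.47, Acan by 6.16, Matn4 by 5.60 and Comp by 3.96. Others were Fam180a by 5.28, Mdk by 3.69, Fgfr3 by 3.51, Car12 by 3.08, Igf2 by 2.52 and Nt5e by 2.42. Fgfr3 was not detected in any day 2 pool, so its signal at day 6 was at least 7.99-fold that at day 2.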

How the results depend on the processing

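Of 139 genes named for day 2 against unfractured, 127 kept their direction over all pools under every alternative that gave a value. In the fit without the macrophage-high pools, median scaling turned 16 of the 139, 10 of them called lower (Cdkn1c, Notch3, Hes1, Hey1, Vegfc, Nt5e, Kitl, Cd34, Id1 and Irf9). With median scaling Cdkn1c turned to 0.084, Cd34 to 0.14, Pdgfrb to 0.49, Id1 to 0.052, Dusp2 to 0.0031 and Irf9 to 0.020, and with the mean of all detected probes Col3a1 turned to -0.095, Rtn4 to -0.11 and Tnc to -0.020. Heyl turned to 0.024 without the macrophage-high pools. Leaving out 1 pool at a time gave -0.32 to 0.61 for Col3a1, -0.53 to 0.94 for Sp7, -0.28 to 0.79 for Tnc and -0.16 to 0.74 for Pdgfra. The median change of all genes under median scaling was 0.83 over all pools and 1.23 without the macrophage-high pools.

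The counts of 0 higher and 0 lower at day 2 became 2915 and 2218 with array weights and 1089 and 1006 without the macrophage-high pools. Leaving out 1 pool gave 0 to 490 higher and 0 to 434 lower, the highest without unfractured replicate 3. Those 1089 and 1006 calls became 5960 and 184 with median scaling, 0 and 0 on the 4 arrays alone, and 624 and 649 with sex in the model, and leaving out 1 pool gave 0 to 2738 and 0 to 2144. These settings for the smaller fit were chosen after seeing the data.

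For day 6 against day 2, 132 higher and 11 lower, median scaling gave 78 and 2, array weights 1576 and 1859, and leaving out the macrophage-high pools 246 and 105. Lower calls numbered 32 with quantile normalisation without background correction, 32 with the deposited table and 3 with sex in the model. Leaving out 1 pool gave 46 to 162 higher and 1 to 27 lower. The causes of these differences were not tested, except that fewer arrays leave fewer degrees of freedom.

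Deviations of day 2 and unfractured pools of the same replicate number correlated at -0.187, 0.402 and -0.306 for numbers 1 to 3. Only the pools of number 2 deviated together. The highest correlation, 0.443, was between pools of different number, day 2 pool 1 and unfractured pool 3. With the replicate block, day 2 against unfractured had 0 higher and 0 lower (1768 genes at an unadjusted p under 0.05) and day 6 against day 2 had 85 higher and 4 lower.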
